A study of Mus musculus with 6 samples.

Results

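The haem synthesis and iron handling genes described here were measured in 32D cells, a mouse myeloid line that depends on interleukin-3. The 31 members were listed by name, with earlier results of these data known and by no threshold on these signals, and each was represented by its single-symbol probe set with the highest mean over 6 arrays. Of the 31, 26 passed a filter on dim probe sets and were tested among 10201 genes, 4 lay below it, and 1, Ftl1, had no probe set of its own. The 3 miR-9/9* samples carried the expression construct labelled C2-MiR-9, and the 3 empty vector samples the one labelled A1-EV. Both arms were 32D cells growing in RPMI with murine interleukin-3 at 10 ng/ml and 10% FCS, and samples were numbered 1 to 3 in each arm. The cultures are described as independent without saying how they were separated, and neither the promoter of the construct nor the number of clones is given in the sources used here.

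Haem is made from glycine and succinyl-CoA in a chain of enzymes that begins and ends in the mitochondrion. Iron enters most cells as transferrin, held by transferrin receptors, and is then reduced, carried into the mitochondrion for haem and iron-sulphur clusters, stored in ferritin or exported. A pair of RNA-binding proteins sense iron and set the amounts of ferritin and receptor, and red cell precursors raise the whole pathway to supply haemoglobin. Haem oxygenases break haem down to biliverdin, and the haem-binding repressor BACH1 holds back the gene of the inducible oxygenase, Hmox1.

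The strands that the miR-9/9* cells expressed are shown first because they define the treatment. The labels name them without a sequence, so the mouse sequences are taken from RefSeq (GRCm38.p6), where the Mir9-1 gene holds them at chr3:88215613-88215635 and chr3:88215652-88215673 on the plus strand. The Mir9-2 and Mir9-3 genes on chromosomes 13 and 7 hold the same mature sequences. Capitals mark the seed, bases 2 to 8, and the seeds of the strands differ.
miR-9 (mmu-miR-9-5p): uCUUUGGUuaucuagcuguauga
miR-9* (mmu-miR-9-3p): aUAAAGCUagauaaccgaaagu

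With the replicate number as a block, 1 of the 26 tested members passed, and it rose: Tfr2, the second transferrin receptor, which senses loaded transferrin and associates with the erythropoietin receptor. The adjusted threshold of 0.05 in limma was passed by 1.51% of all genes as higher and 1.45% as lower in that fit. Without the block 0 of the 26 passed, against 0.0196% of all genes as higher and 0.0392% as lower, and 1 had an unadjusted p under 0.05, against 4.61%. With the block 10 of the 26 had an unadjusted p under 0.05, against 17% of all genes. Members' differences were small, from -0.31 to 0.64, with a median of 0.04 against 0.01 over all genes. All differences are miR-9/9* minus empty vector in mean log2(signal + 16), which understates changes of dim genes. P-values without the block draw on the spread between samples within an arm. Those with it draw on the spread of the within-number differences over the replicate numbers. In both fits limma moves each gene's variance toward a trend shared by genes of like signal. A p-value therefore does not rest on the gene's own spread alone. Abcb10, for example, had pairs of 0.150, 0.154 and 0.139 but a blocked SE of 0.084.

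Signals are MAS5 intensities scaled to a common trimmed mean of 100, and median signals of the arrays ran from 12.0 to 15.2. Across genes, the deviation of a miR-9/9* array from its arm mean correlated with that of the empty vector array of the same number, at 0.491, 0.616 and 0.681 for numbers 1, 2 and 3, which is the reason for the block. Fit to the labelled cell type was checked on markers. The pan-leukocyte gene Ptprc had signals of 1540, 1522 and 1463 in miR-9/9* samples, against 1367, 1642 and 1376 in empty vector samples. Of the receptor genes for interleukin-3, Csf2rb fell with the block by 0.35 on the log2 scale (adjusted p = 0.0363 with the block, 0.999 without it). Il3ra had a difference of -0.39 with arms apart and did not pass (adjusted p = 0.184 with the block). Spi1, a myeloid transcription factor gene, stood at -0.14, and the progenitor marker Cd34 lay below the filter in both arms. Signals of different probe sets were not ranked against each other, since each probe set has its own brightness.

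**Figure D1:**
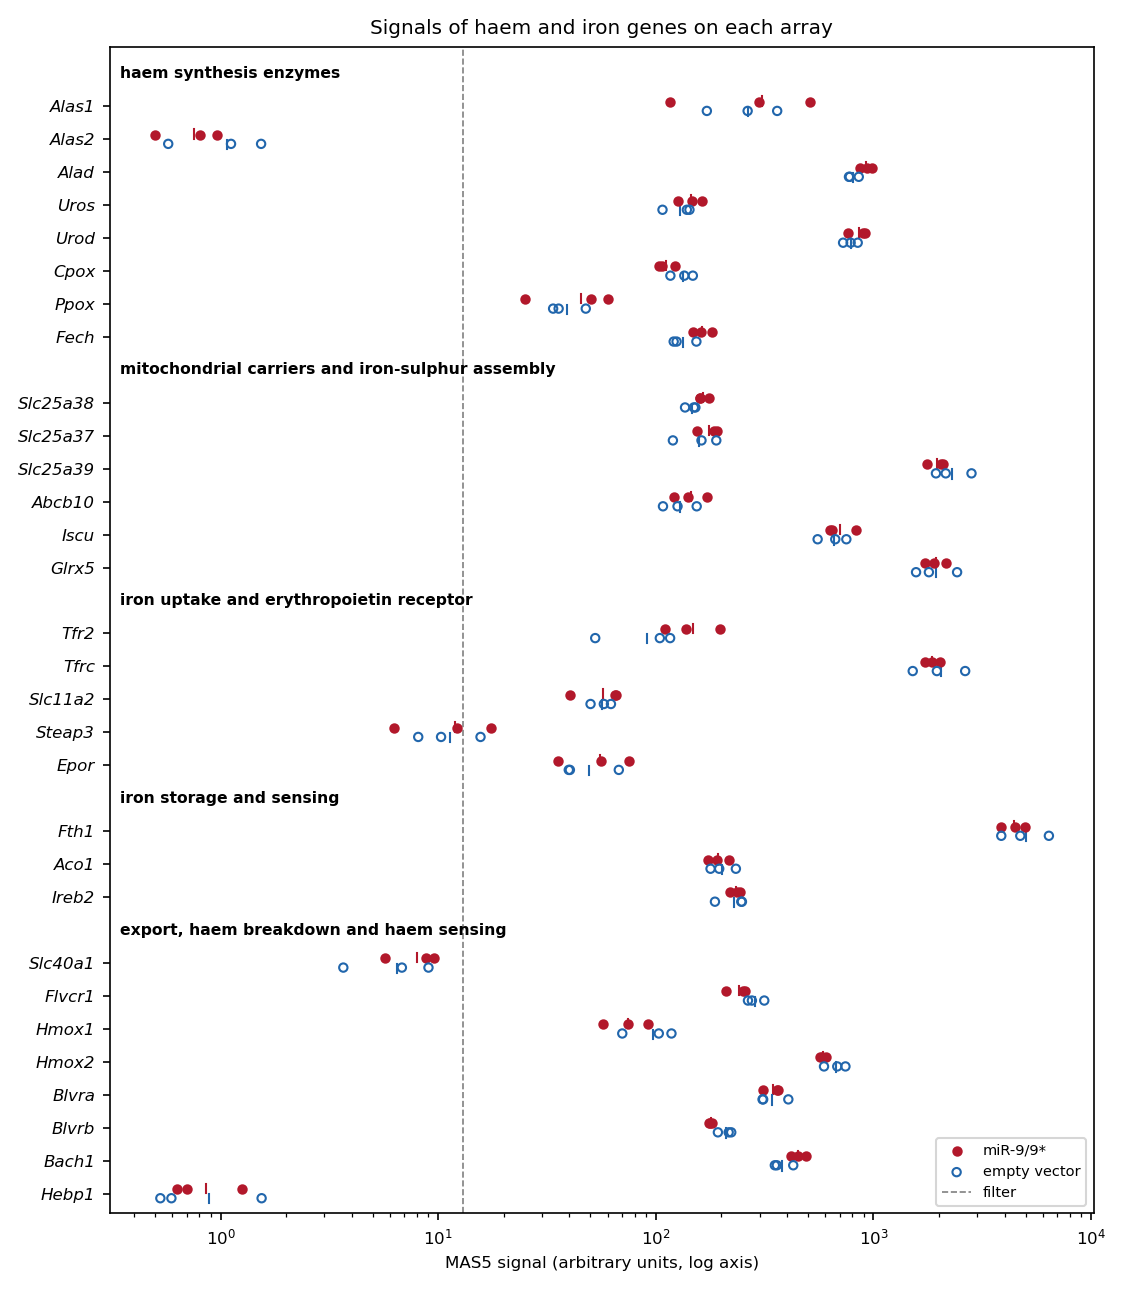
MAS5 signal (log axis, arbitrary units) of the 30 members with a probe set of their own on each of 6 arrays; filled points are miR-9/9*, open points empty vector, short bars the arm means, and the dashed line the signal of 13.004 that corresponds to the filter. Alas2, Hebp1, Slc40a1 and Steap3 lie at the low end in both arms, and the arms of Alad, Slc25a38, Blvrb and Flvcr1 are separate.

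Tfr2 had signals of 197, 138 and 109.7 in miR-9/9* samples 1, 2 and 3, against 116, 104 and 52.7 in empty vector samples 1, 2 and 3. Every miR-9/9* sample was above the empty vector sample of its number, but the arms overlapped, because miR-9/9* sample 3 lay below empty vector sample 1. The means were 148 ± 44.8 in miR-9/9* and 91.1 ± 33.8 in empty vector cells (SD, n = 3 each). The log2 fold change was 0.64, with an SE of 0.277 without the block (adjusted p = 0.999) and of 0.114 with it (adjusted p = 0.0201). Its 95% interval with the block ran from 0.38 to 0.90. This probe set, 1459994_x_at, has a suffix for sets whose probes may match other transcripts. The sets used for Urod, Slc25a39 and Aco1 share that suffix. A second Tfr2 set, 1425381_a_at, read 152, 114 and 81.0 in miR-9/9* samples against 91.6, 92.3 and 51.4 in empty vector samples. It was likewise higher in 3 of 3 pairs, by 0.48 on the log2 scale, and did not pass with the block when all probe sets were tested (adjusted p = 0.0657, against 0.0218 for the first set). The call of Tfr2 was also lost without replicate 1 of both arms (adjusted p = 0.0580), when limma's variance trend was dropped (0.0970) and when dim probe sets were kept in the test (0.0985).

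Some markers of other blood lineages passed with the block in the same arrays. Over all genes 1.51% passed as higher and 1.45% as lower in that fit. Of 10 erythroid markers tested, 4 rose with the block, namely Rhag, Gata1, Klf1 and Tal1, and 0 fell. In 3 of 3 pairs 6 of the 10 were higher, against 21% of all genes. The other 4 had pairs of both signs, with differences of -0.15 for Epb42, -0.06 for Ank1, -0.04 for Nfe2 and 0.11 for Sptb. Summed over 13 erythroid markers with a probe set, signals ran from 4056 to 4875 in miR-9/9* and from 3242 to 3660 in empty vector samples. The arms did not overlap, but this sum includes the 4 called markers and adds nothing separate to their calls. Bright probe sets weigh most in it and in the sums below. Ermap, Hbb-bh1 and Slc4a1, the red cell anion exchanger, lay below the filter. Slc4a1 was at no more than 4.36 in miR-9/9* and 6.28 in empty vector samples. Of 6 megakaryocyte markers tested, 4 rose with the block, namely Itgb3, Gp5, Gp9 and Vwf. Itga2b stood at 0.07 and Pf4 at 0.01, the latter with pairs of both signs. Sums over 6 megakaryocyte genes were 1495 to 2846 in miR-9/9* and 1211 to 2260 in empty vector samples. Of 8 neutrophil markers tested, 3 fell with the block, namely Ltf, S100a8 and S100a9, and 0 rose. In 3 of 3 pairs 5 of the 8 were lower, against 18% of all genes. The other 3, Mpo, Prtn3 and Ctsg, had pairs of both signs. Mpo had a difference of 1.38 in the other direction and did not pass (adjusted p = 0.0731 with the block in limma). Prtn3 stood at -0.01 and Ctsg at -0.26. Sums over 11 neutrophil genes were 1635 to 5763 in miR-9/9* and 1865 to 5566 in empty vector samples. Of 3 eosinophil markers tested, 2 rose with the block, Prg2 by 2.38 (adjusted p = 0.0217 with the block) and Siglecf by 0.73 (0.00672). Epx had pairs of both signs, at 1.09, -0.76 and 1.64, and did not pass (adjusted p = 0.388 with the block). Il5ra lay below the filter. Sums over 4 eosinophil genes ran from 274 to 3610.5 in miR-9/9* and from 255 to 1371 in empty vector samples. Without the block 0 markers of these 4 lineages passed in limma (smallest adjusted p = 0.074, for Rhag and Itgb3). In that fit 3 erythroid, 3 megakaryocyte, 1 eosinophil and 0 neutrophil markers had an unadjusted p under 0.05, against 4.61% of all genes. Of 4 monocyte and macrophage markers and 4 mast and basophil markers tested, 0 passed in either fit. The part of other cell types in the Tfr2 result was not tested, and in bulk samples fewer cells of a type and less RNA per cell cannot be told apart.

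The companion receptor Tfrc, which brings in most transferrin iron in dividing cells, gave no call. Its signals were 1721, 1849 and 2012 in miR-9/9* samples, against 1955, 1515 and 2638 in empty vector samples. Pairs 1 and 3 were lower and pair 2 higher, so the arms overlapped. The difference was -0.10, with a blocked 95% interval from -0.36 to 0.17 (adjusted p = 0.745). The other Tfrc sets above the filter stood at 0.14 and -0.23, and the array maker's 3 control sets for this gene at -0.10, -0.17 and -0.34. Whether Tfr2 and Tfrc differ in response was not tested.

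The other uptake genes gave no call either. Epor, the erythropoietin receptor, had signals of 56.1, 75.2 and 35.7 in miR-9/9* against 67.6, 40.3 and 39.8 in empty vector samples. Only pair 2 was higher, and the interval was wide, from -0.27 to 0.52. The proton-coupled iron importer Slc11a2, also called DMT1, had means of 57.0 ± 14.3 in miR-9/9* and 56.7 ± 6.10 in empty vector cells (SD, n = 3 each). Its difference was -0.01 on this set, and its other sets above the filter stood at -0.13 and 0.31. The Slc11a2 sets thus disagree in direction. Steap3, the ferrireductase of the transferrin endosome in red cell precursors, lay below the filter at 6.29 to 17.4 in miR-9/9* and 8.10 to 15.7 in empty vector samples.

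**Figure D2:**
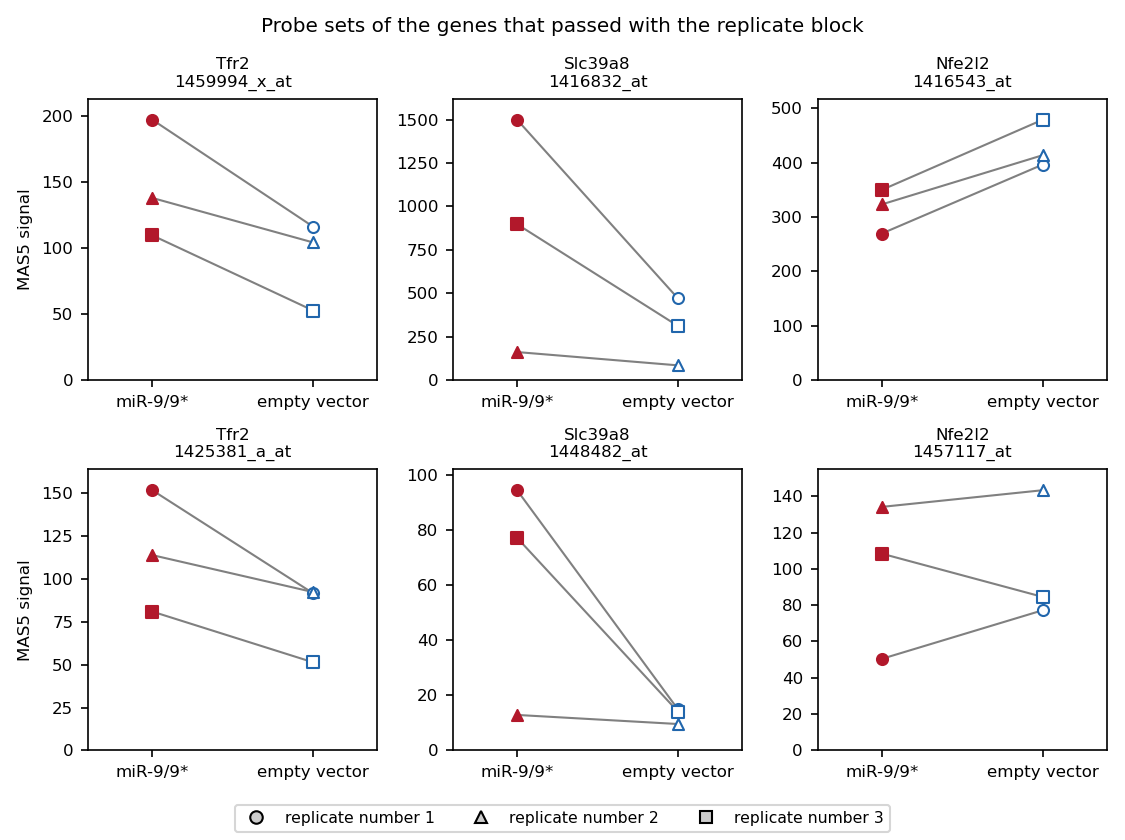
MAS5 signal (linear axis from 0) of both probe sets above the filter for Tfr2, Slc39a8 and Nfe2l2, with miR-9/9* left and empty vector right and lines joining samples of one replicate number. Both sets of Tfr2 and Slc39a8 are higher in miR-9/9* in 3 of 3 pairs, whereas Nfe2l2 is lower in 3 of 3 pairs on 1416543_at and of mixed direction on 1457117_at.

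Stretches of 100 bases before an annotated start are shown for Tfr2, for its partner Epor and for Alas2, which hold motifs of KLF1-type or GATA factors. The messages of Klf1 and Gata1 rose with the block in these cells. Whether these factors act on the 3 genes was not tested. The stretches come from RefSeq (GRCm38.p6). Motifs were searched on both strands and are marked by capitals, each here on the reverse strand. KLF1-type factors bind the motif CCACACCC, shown for Tfr2. Factors of the GATA family bind AGATAA, shown for Epor and Alas2.
Tfr2, chr5:137569740-137569839, plus strand: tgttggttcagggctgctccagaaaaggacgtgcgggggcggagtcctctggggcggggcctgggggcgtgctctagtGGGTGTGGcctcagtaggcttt
Epor, chr9:21963577-21963676, minus strand: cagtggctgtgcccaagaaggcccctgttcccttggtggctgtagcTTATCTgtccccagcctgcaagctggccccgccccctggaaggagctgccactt
Alas2, chrX:150547317-150547416, plus strand: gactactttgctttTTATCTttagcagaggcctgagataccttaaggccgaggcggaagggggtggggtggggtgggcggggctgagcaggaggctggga

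The Tfr2 match starts 22 bases before that start. Over the 250 bases before each start, CCACACCC was present for 1 of the 25 members in the promoter table, Tfr2, against 3.68% of all genes. AGATAA was present for 3 of the 25, Epor, Alas2 and Steap3, against 11.4% of all genes. The antioxidant core TGANNNNGC, which BACH1 and NRF2 share, was present for 10 of the 25 against 38.7% of all genes. Each match describes letters only. Of the 3 genes with AGATAA, Epor was measured without a call and Alas2 and Steap3 lay below the filter.

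Among the haem synthesis enzymes, 0 of 7 tested passed in either fit, and their median difference was 0.12. The first step is run by ALAS1 in most cells and by ALAS2 in red cell precursors. Alas1 read 512, 116 and 297 in miR-9/9* samples 1, 2 and 3, against 361, 172 and 264 in empty vector samples 1, 2 and 3. It differed more between replicate numbers than between arms: number 1 was highest and number 2 lowest in both arms, with a 4.41-fold range in miR-9/9* and a 2.10-fold range in empty vector cells. The pairs disagreed in sign, at 0.49, -0.50 and 0.16 on the log2 scale, and the blocked interval ran from -0.30 to 0.40. Its second probe set stood at -0.07, and averaging both sets gave a difference of -0.01.

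Alas2 lay far below the filter, at 0.964, 0.807 and 0.498 in miR-9/9* samples against 1.54, 0.575 and 1.12 in empty vector samples. No fold change is given between values this dim. The erythroid isoform was therefore not measurable above the filter in either arm on the arrays on which Rhag, Gata1 and Klf1 rose.

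Alad, which joins 2 aminolaevulinate molecules into porphobilinogen, read 868, 982 and 935 in miR-9/9* samples against 772, 779 and 856 in empty vector samples. All miR-9/9* samples lay above all empty vector samples. The difference of 0.21 (blocked interval 0.05 to 0.36) did not pass (adjusted p = 0.171). Fully separated arms were seen in 2 members in the higher direction, Alad and Slc25a38, and in 2 in the lower, Blvrb and Flvcr1, against 5.08% and 4.73% of all genes.

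Fech, ferrochelatase, which inserts iron into protoporphyrin as the last step, read 181, 162 and 148 in miR-9/9* samples against 154, 125 and 121 in empty vector samples. Its 3 probe sets above the filter each stood higher in 3 of 3 pairs, at 0.27, 0.20 and 0.22, and the representative set did not pass (adjusted p = 0.137 with the block). Cpox, the coproporphyrinogen oxidase of the mitochondrial intermembrane space, went the other way. It read 123, 103 and 107 in miR-9/9* samples against 148, 117 and 135 in empty vector samples. Both Cpox sets above the filter were lower in 3 of 3 pairs, at -0.23 and -0.43, without a call for the representative set (adjusted p = 0.229 with the block).

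The remaining enzymes overlapped between arms. Uros, which closes the porphyrin ring, averaged 145 ± 18.3 in miR-9/9* and 130 ± 19.4 in empty vector cells, higher in 3 of 3 pairs. Urod, which trims its side chains, averaged 859 ± 84.9 in miR-9/9* and 786 ± 60.6 in empty vector cells, with pair 3 lower. Ppox, which makes protoporphyrin, averaged 45.2 ± 18.1 in miR-9/9* and 39.1 ± 7.52 in empty vector cells (SD, n = 3 each for all 3 genes). Its pairs ran from -0.63 to 0.55, the widest span of any tested member.

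**Figure D3:**
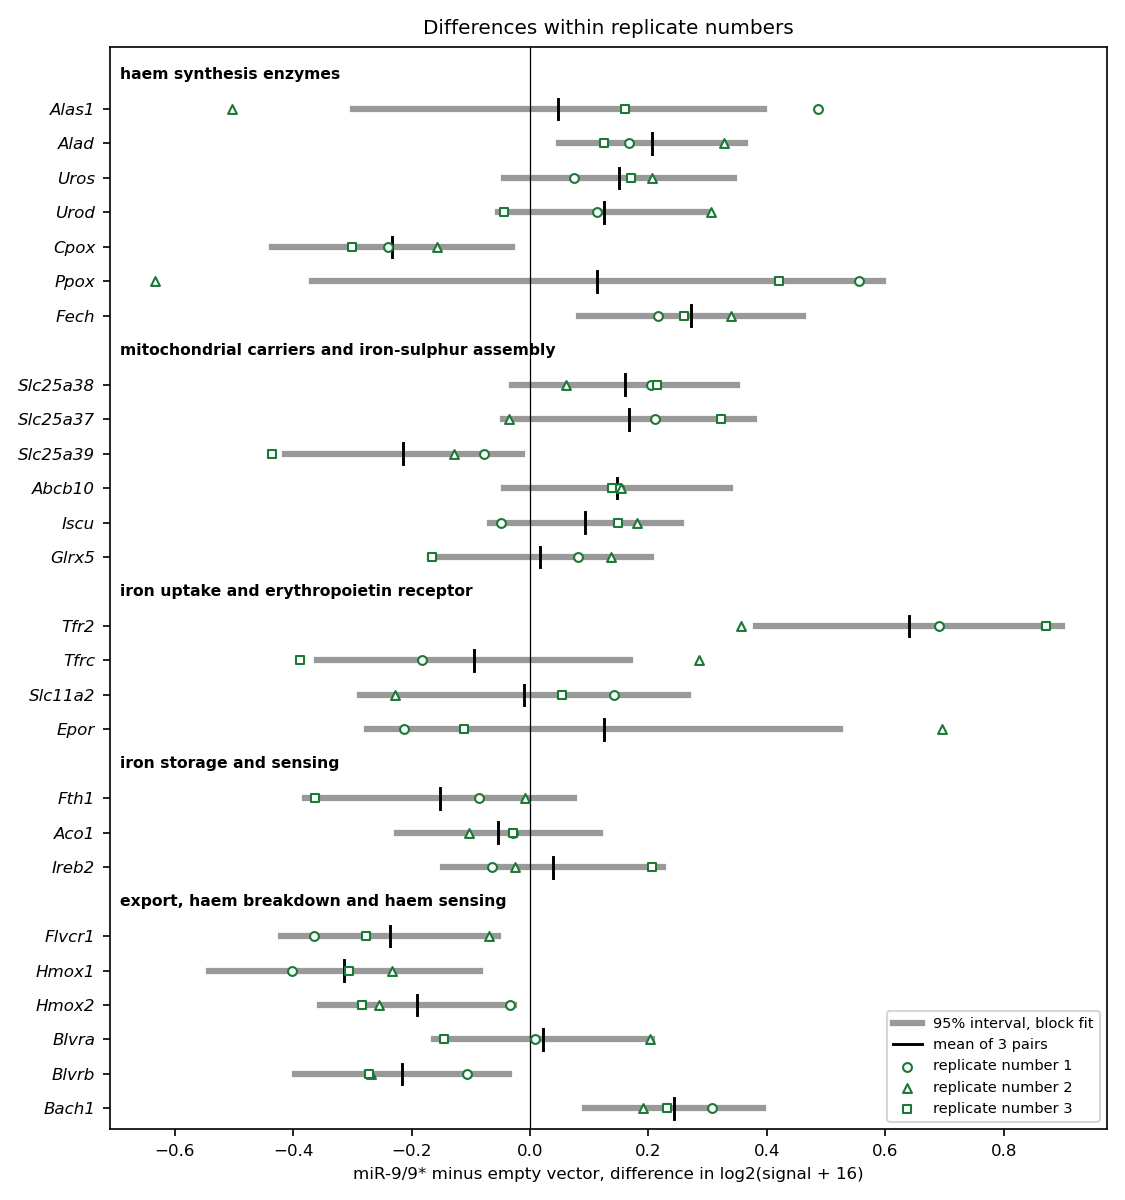
Difference in log2(signal + 16), miR-9/9* minus empty vector, within replicate numbers 1 (circles), 2 (triangles) and 3 (squares) for the 26 tested members, with their mean (bar) and the blocked 95% interval (grey). Tfr2 stands at 0.64 with all 3 pairs higher, 8 members have all 3 pairs lower, and 11 have pairs of both signs.

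In 3 of 3 pairs, 7 members were higher and 8 lower, against 21% and 18% of all genes. The 7 were Tfr2, Alad, Uros, Fech, Slc25a38, Abcb10 and Bach1, and the 8 were Cpox, Slc25a39, Fth1, Aco1, Flvcr1, Hmox1, Hmox2 and Blvrb. Among them Tfr2 alone passed the adjusted threshold with the block, so the others are given as values.

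The mitochondrial carriers and cluster assembly genes, 6 of 6 tested, gave 0 calls. Slc25a38, which brings glycine into the mitochondrion for haem, read 159, 159 and 176 in miR-9/9* samples against 136, 152 and 149 in empty vector samples, so the arms were separated by a narrow gap. The difference was 0.16 (adjusted p = 0.384 with the block). Abcb10, an inner membrane transporter needed for haem synthesis in red cell precursors, had a near constant difference of 0.15, 0.15 and 0.14 in pairs 1, 2 and 3. It did not pass (adjusted p = 0.428 with the block).

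Slc25a37, mitoferrin 1, which imports iron into the mitochondrion of red cell precursors, averaged 176 ± 19.5 in miR-9/9* and 157 ± 35.2 in empty vector cells (SD, n = 3 each). Slc25a39, a mitochondrial glutathione carrier, read 2036, 1770 and 2081 in miR-9/9* samples against 2148, 1937 and 2821 in empty vector samples. It was lower in 3 of 3 pairs on this set, 1439410_x_at, and its other 3 sets above the filter were lower on average by 0.05 to 0.07 with pairs of both signs. The cluster scaffold Iscu and the glutaredoxin Glrx5, which passes clusters on, had differences of 0.09 and 0.02, with blocked intervals from -0.07 to 0.25 and from -0.17 to 0.20.

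Of the ferritin chains, Fth1, the heavy chain that oxidises iron, read 4452, 3845 and 4967 in miR-9/9* samples against 4726, 3865 and 6397 in empty vector samples. Number 3 was highest and number 2 lowest in both arms. The difference of -0.15 had a blocked interval from -0.38 to 0.08 (adjusted p = 0.499), and it came mostly from pair 3, at -0.36 against -0.09 and -0.01. A second Fth1 set, 1427021_s_at, stood at -0.14.

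Ftl1, the light chain, has probe sets annotated together with the pseudogene Ftl1-ps2, so they stand for no single gene. The one with the highest mean, 1418364_a_at, read 3755, 3253 and 4241 in miR-9/9* samples against 3432, 3361 and 4825 in empty vector samples. Number 3 was again highest in both arms. The difference was -0.03 (blocked adjusted p = 0.916 over 22551 probe sets). Another set, 1422301_at, which is also annotated to microRNA genes, stood at -0.34 and did not pass (0.137).

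The iron sensors Aco1 and Ireb2 encode the iron regulatory proteins, which bind stem-loops in ferritin and Tfrc messages. Aco1, which doubles as the cytosolic aconitase, averaged 194 ± 20.8 in miR-9/9* and 202 ± 28.1 in empty vector cells. Ireb2 averaged 233 ± 12.8 in miR-9/9* and 227 ± 35.2 in empty vector cells (SD, n = 3 each for both genes). Their differences had blocked intervals from -0.23 to 0.12 for Aco1 and from -0.15 to 0.22 for Ireb2. The Aco1 set used, 1456728_x_at, has the suffix for probes that may match other transcripts, and it was lower in 3 of 3 pairs. The second Aco1 set, 1423644_at, without that suffix, stood at 0.23, higher in 3 of 3 pairs. The Aco1 sets thus disagree in direction.

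Genes of haem breakdown, export and haem sensing gave 0 calls among 6 tested, with a median difference of -0.20. In 3 of 3 pairs 4 of the 6 were lower and 1, Bach1, was higher, against 18% and 21% of all genes. Hmox1, the inducible haem oxygenase, read 74.2, 57.3 and 92.4 in miR-9/9* samples against 103, 70.1 and 118 in empty vector samples. Each pair was lower, by a mean of -0.31 (adjusted p = 0.155 with the block), while the arms overlapped. Hmox2, the constitutive oxygenase, read 578, 569 and 608 in miR-9/9* samples against 593, 682 and 743 in empty vector samples, and pair 1 differed by -0.03.

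Blvrb, a biliverdin and flavin reductase abundant in red cells, read 178, 182 and 176 in miR-9/9* samples against 193, 222 and 216 in empty vector samples. The arms did not overlap, yet the difference of -0.22 did not pass (adjusted p = 0.208 with the block). Blvra, the main adult biliverdin reductase, averaged 346 ± 30.1 in miR-9/9* and 342 ± 55.4 in empty vector cells (SD, n = 3 each). Flvcr1, a haem exporter in red cell precursors, read 211, 252 and 257 in miR-9/9* samples against 276, 265 and 315 in empty vector samples. These arms were also separate (difference -0.24, adjusted p = 0.178 with the block).

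Bach1, the haem-sensing repressor of Hmox1 and ferritin genes, had the second smallest adjusted p of the members. It read 449, 490.5 and 416 in miR-9/9* samples against 359.8, 428 and 352 in empty vector samples. Each pair was higher, the arms overlapped through empty vector sample 2, and the difference of 0.24 (blocked interval 0.09 to 0.39) did not pass (adjusted p = 0.0953). Its second set stood at 0.0045 with pairs of both signs. The iron exporter Slc40a1, ferroportin, and the haem-binding protein gene Hebp1 lay below the filter, at no more than 9.59 and 1.25 in miR-9/9* and 9.02 and 1.54 in empty vector samples.

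Many members kept 1 order of replicate numbers in both arms. Number 3 was highest in both arms for 10 of 26 members (38.5%, against 21.1% of all genes): Uros, Slc25a39, Iscu, Glrx5, Tfrc, Fth1, Flvcr1, Hmox1, Hmox2 and Blvra. Number 1 was highest in both arms for 6, Alas1, Urod, Cpox, Fech, Abcb10 and Tfr2, or 23.1% against 17.3% of all genes. Number 2 was highest in both for Blvrb, Aco1 and Bach1 and lowest in both for 10 members (38.5%, against 19.8% of all genes). These orders describe 3 cultures per arm, and what the numbers stand for is not stated in the sources used here.

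**Figure D4:**
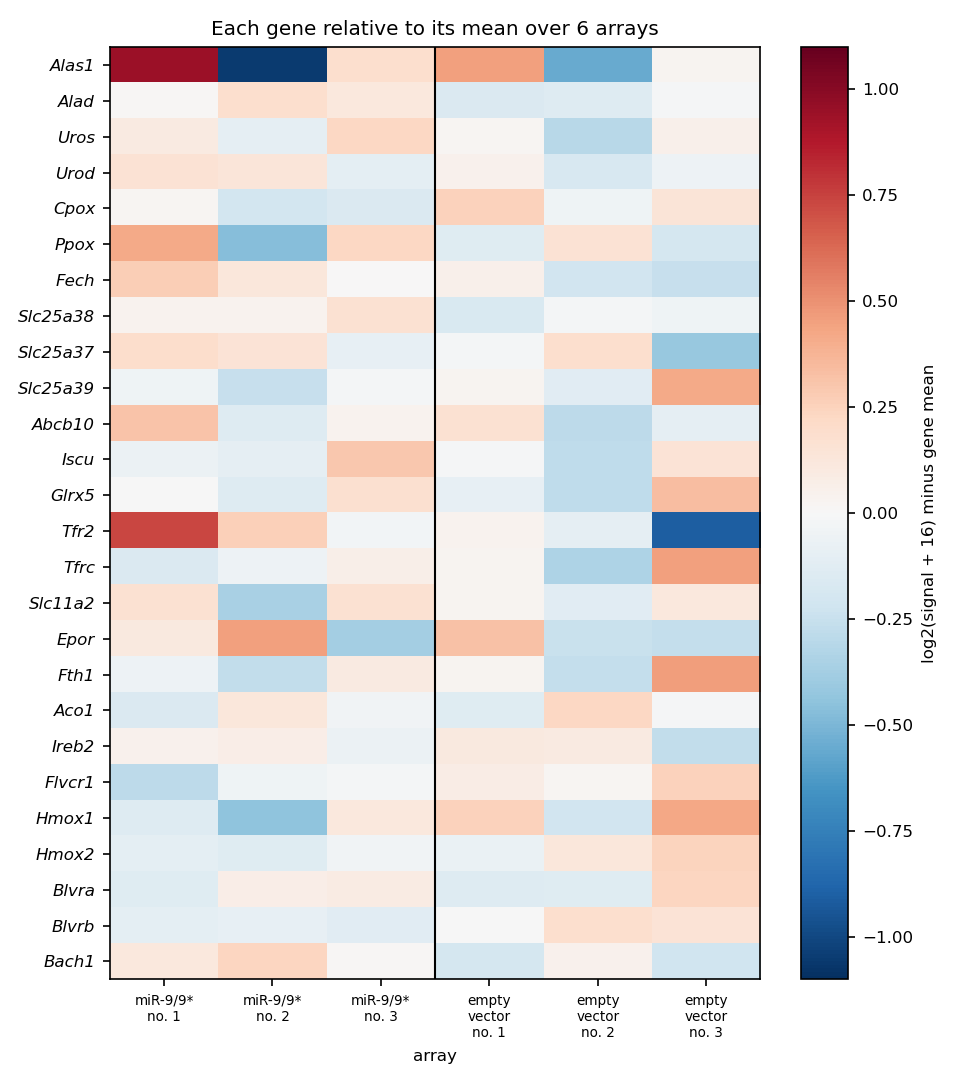
Log2(signal + 16) of each tested member minus its mean over 6 arrays, with the 3 miR-9/9* arrays left and the 3 empty vector arrays right; red is above and blue below the mean. Alas1 follows the replicate number in both arms, with number 1 highest and number 2 lowest, and Tfr2 is highest in miR-9/9* number 1 and lowest in empty vector number 3.

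A list of 60 further haem and iron genes was set beside the members. Of the 60, 41 were tested. With the block 1 of the 41 rose, Slc39a8, and 1 fell, Nfe2l2, against 1.51% and 1.45% of all genes. Without the block 0 of the 41 passed, against 0.0196% of all genes as higher and 0.0392% as lower. The median difference was 0.01, as over all genes. Slc39a8, the metal importer ZIP8, which carries zinc, manganese and iron, read 1499, 161 and 897 in miR-9/9* samples 1, 2 and 3, against 470.0, 83.9 and 311 in empty vector samples 1, 2 and 3. Number 2 was lowest in both arms and the arms overlapped, but each pair was higher, by 1.64, 0.82 and 1.48. The log2 fold change was 1.31, with an SE of 0.796 without the block (adjusted p = 0.999) and 0.134 with it (adjusted p = 0.00209). Its second set, 1448482_at, was also higher in 3 of 3 pairs, by 1.21, and did not pass when all probe sets were tested (adjusted p = 0.0559 with the block). Dropping the variance trend ended the call of Slc39a8 (adjusted p = 0.0509 with the block).

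Nfe2l2 encodes NRF2, the activator that competes with BACH1 at antioxidant elements of Hmox1 and ferritin genes. It read 269, 323 and 349.7 in miR-9/9* samples against 396, 413 and 479 in empty vector samples, with arms fully apart. The log2 fold change was -0.44 (adjusted p = 0.0135 with the block and 0.753 without it). A second set, 1457117_at, stood at -0.09 with pairs of both signs, and averaging the sets ended the call (adjusted p = 0.214 with the block). It was also lost without replicate 1 of both arms (adjusted p = 0.0659), when the variance trend was dropped (0.107) and when dim probe sets were kept (0.0562).

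Further NRF2-responsive genes on the list did not pass: Nqo1, a quinone reductase, had a difference of -0.10, and Gclm and Gclc, the subunits of glutamate-cysteine ligase, of 0.11 and -0.07. Among the rest, the iron-sulphur protein gene Cisd2 was higher in 3 of 3 pairs (0.28, adjusted p = 0.0853 with the block). Nubp1, of cytosolic cluster assembly, was lower in 3 of 3 pairs (-0.25, adjusted p = 0.134 with the block). The ferritin autophagy receptor Ncoa4 averaged differences of 0.09, and Tmem14c, a porphyrin carrier of the mitochondrion, 0.14, without a call.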

How the data were processed

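Levels are MAS5 signal intensities on a linear scale, 1 per probe set of a 1-colour array, as deposited by the authors; MAS5 is named without a version per the submitters' processing notes. Per the labels' protocols, 6 ug of Trizol-extracted RNA was labelled with biotin. Symbols came from a 2016 platform annotation: 34958 of 45101 probe sets carry 1 symbol, 932 several, and no gene was named from the latter. By Entrez ID, 34754 matched a RefSeq table, with 0 symbols changed.

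Signals were taken as log2(signal + 16). Of 18194 genes, 10201 had a probe set with a mean at or above the median of all probe sets, a signal of 13.004. The comparison of arms used limma 3.58.1, run in R 4.3.3 (linear fits and eBayes with variance trend, two-sided, Benjamini-Hochberg over all tested genes, threshold 0.05). The fits were tried on simulated data whose planted changes were larger than the difference of any member. That trial does not show how they perform on changes as small as those of the members. The main model has no block and 4 residual degrees of freedom. The replicate number as a block leaves 2. Numbers were taken to pair the arms because every same-number correlation of deviations exceeded 0.1. The labels give only the numbers, and few arrays make a match by chance possible. Blocked values stand beside results whose call they change.

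Members and lists were chosen with earlier results of these data known. Named are all members, list genes that passed or had the 4 smallest blocked p, and further list genes chosen after their values were seen. Alternatives changed the pseudocount, filter, normalization, variance model, array weights, probe set choice and samples, and depth has no counterpart on arrays: their number limits precision. Genes with no single-symbol probe set in the table used were not analysed here.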

Additional observations from a re-analysis of the deposited data

How the results depend on the processing

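Of the 26 members, 0 passed without the block under any pseudocount, filter, normalization, variance model, array weighting, averaging or left-out array tried. With the replicate block the count of higher members was 1, Tfr2, also after quantile normalization, median centring, a pseudocount of 1 or 64 and averaging of probe sets. It was 0 with dim probe sets kept, 0 with no variance trend, 0 with replicate 1 left out and 1 with replicate 2 or 3 left out. Lower members numbered 0 throughout. Of the further haem and iron genes, 1 was higher with the block and 1 lower, against 1.51% and 1.45% of all genes. The higher count stayed at 1, except 0 with no variance trend and 2 with replicate 2 left out. The lower count was 0 with dim probe sets kept, 0 with no variance trend, 0 with averaged probe sets, 0 with replicate 1 left out and 2 with replicate 3 left out.

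Over all genes 2 were higher and 4 lower without the block. These counts were 0 and 0 with no filter and with a stricter one, 3 and 2 after quantile normalization, 3 and 3 with arrays centred, 3 and 4 with a pseudocount of 64, 1 and 2 with no variance trend and 14 and 12 with array weights. Leaving out arrays gave 0 to 3 and 0 to 4. With the block they were 154 and 148, then 21 and 17 with no variance trend, 40 and 34 with no filter, 136 and 137 after quantile normalization and 116 and 150 with arrays centred. They were 142 and 135 with a pseudocount of 1, 147 and 146 with 64 and 100 and 87 with averaged probe sets. With the block and replicate 1, 2 or 3 left out they were 86 and 76, 187 and 152, and 163 and 194.

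Of 30 genes followed, 19 kept their direction in every alternative. The other 11 were uncalled throughout. Averaging probe sets turned Alas1 to -0.0091, Ppox to -0.079, Slc11a2 to 0.16 and Aco1 to 0.080, with or without the block. Array weights turned Slc11a2 to 0.038, Ireb2 to -0.037 and Epor to -0.044, and centring turned Glrx5 to -0.0027. With the block, leaving out replicate 1 turned Alas1 to -0.17, Ppox to -0.11 and Glrx5 to -0.014. Leaving out replicate 2 turned Slc11a2 to 0.098, Blvra to -0.069, Glrx5 to -0.042 and Epor to -0.16. Leaving out replicate 3 turned Alas1 to -0.0083, Ppox to -0.039, Tfrc to 0.051 and Ireb2 to -0.044. With single arrays left out and no block, log2 differences ran from -0.41 to 0.59 for Alas1, -0.066 to 0.38 for Ppox, -0.29 to 0.11 for Tfrc, -0.32 to 0.041 for Fth1, -0.098 to 0.16 for Slc11a2 and -0.042 to 0.15 for Blvra. They ran from -0.13 to 0.045 for Aco1, -0.087 to 0.10 for Ireb2, -0.033 to 0.19 for Iscu, -0.12 to 0.19 for Glrx5 and -0.069 to 0.34 for Epor. The cause of these changes was not tested. The fit over probe sets was chosen after seeing the data.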
